A study of Mus musculus with 2 samples.

Results

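Type I interferon-stimulated genes were followed as a set of 38 named genes, chosen by matching their symbols to the 12638 genes of the deposited expression matrix. All 38 were measured. The matrix held 12458 CD45-positive cells, sorted with enrichment for dendritic cells, from tumours and lymph nodes of C57Bl6 mice that carried MC38-OVAdim cells, injected under the skin of the flank. Tumour, tumour-draining node (dLN) and non-draining node (ndLN) were taken from each of 4 mice, which makes 12 samples of 473 to 1691 cells. WT1 and WT2 were the controls, of genotype Havcr2fl/fl, a floxed form of the gene of the checkpoint receptor TIM-3. KO1 and KO2 were labelled knockouts, and neither the Cre behind the knockout nor the age of the mice was given. The 3 samples of WT1 and KO1 shared 1 droplet channel and those of WT2 and KO2 the other, and 65 cell barcodes occurred in both channels.

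Type I interferons signal through the receptor chains Ifnar1 and Ifnar2 to the kinases Jak1 and Tyk2. The signal runs on to a complex that contains Stat2 and Irf9 and binds the interferon-stimulated response element in the promoters of many genes. The products hold back viruses, tune the response itself and, in tumours, accompany the priming of T cells by dendritic cells. Many of these genes also respond to type II interferon (interferon gamma), so their level does not say which interferon was present.

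The members were ordered by what their products do. The first group of 8 was Isg15, a ubiquitin-like protein that is attached to other proteins, with Usp18, which removes it and dampens the receptor, the ligase Herc6, the ADP-ribosyltransferases Parp9 and Parp14, the Parp9 partner Dtx3l, and also Rtp4 and Trim30a. RNA-binding antiviral proteins made a group of 8, namely Ifit1, Ifit2, Ifit3, Oasl1, Oasl2, Oas3, the kinase Eif2ak2 and the nucleic acid sensor Zbp1. The cytosolic RNA sensors were the 3 genes Ifih1, Ddx58 and Dhx58. Regulators in the nucleus made a group of 6, with Irf7, the factor that amplifies interferon production, Stat2, Sp100, Phf11b, Phf11d and Ifi35. Rsad2 (viperin) and Cmpk2 are neighbouring enzyme genes that act on nucleotides. Ifitm3, Bst2 (tetherin), Lgals3bp and Ifi27l2a encode membrane or secreted proteins. The last 7 were the schlafens Slfn1, Slfn5 and Slfn8 with Xaf1, Samd9l, Epsti1 and Ifi44. In the mm10 annotation the members lay on 15 chromosomes, with 7 on chromosome 11 and the 3 Ifit genes together on chromosome 19.

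Promoter sequence can be read directly and was not itself used to pick the members. They were chosen as interferon-stimulated genes, so a share of response elements above that of all genes is not independent of the choice. RefSeq promoters of the build GRCm38.p6, from 250 bases before to 50 bases after the start site, were found for 31 of the 38, the others being Ifi27l2a, Rtp4, Zbp1, Usp18, Dhx58, Parp14 and Parp9. The core of the interferon-stimulated response element was searched on both strands as GAAA, any 2 bases, then GAAA. It was present in 15 of the 31 (48.4%) and in 3.99% of all 27025 genes in the table. The search describes letters in a window and does not show binding. The 6 promoters below belong to members that differed between cell classes, each given 5′ to 3′ on the gene's own strand, with matches to the motif on either strand in capitals.

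Isg15, chr4:156200769-156201068, minus strand: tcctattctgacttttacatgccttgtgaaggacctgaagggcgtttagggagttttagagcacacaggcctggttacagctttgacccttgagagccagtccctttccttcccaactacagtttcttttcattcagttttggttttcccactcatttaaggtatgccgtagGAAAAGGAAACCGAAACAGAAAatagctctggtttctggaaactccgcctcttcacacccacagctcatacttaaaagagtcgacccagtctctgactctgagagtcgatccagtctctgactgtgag

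Ifit1, chr19:34640639-34640938, plus strand: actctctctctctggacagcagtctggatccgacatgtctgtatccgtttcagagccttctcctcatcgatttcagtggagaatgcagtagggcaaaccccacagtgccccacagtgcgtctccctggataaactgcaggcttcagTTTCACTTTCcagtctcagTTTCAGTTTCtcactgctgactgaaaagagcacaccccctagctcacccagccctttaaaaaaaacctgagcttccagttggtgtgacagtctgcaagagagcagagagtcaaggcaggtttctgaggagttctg

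Rsad2, chr12:26456403-26456702, minus strand: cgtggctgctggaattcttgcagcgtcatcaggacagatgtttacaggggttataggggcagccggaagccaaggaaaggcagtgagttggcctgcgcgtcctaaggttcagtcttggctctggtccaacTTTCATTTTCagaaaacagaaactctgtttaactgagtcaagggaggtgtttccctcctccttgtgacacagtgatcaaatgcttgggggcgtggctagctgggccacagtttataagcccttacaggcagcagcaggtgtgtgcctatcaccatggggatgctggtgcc

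Ifitm3, chr7:141010695-141010994, minus strand: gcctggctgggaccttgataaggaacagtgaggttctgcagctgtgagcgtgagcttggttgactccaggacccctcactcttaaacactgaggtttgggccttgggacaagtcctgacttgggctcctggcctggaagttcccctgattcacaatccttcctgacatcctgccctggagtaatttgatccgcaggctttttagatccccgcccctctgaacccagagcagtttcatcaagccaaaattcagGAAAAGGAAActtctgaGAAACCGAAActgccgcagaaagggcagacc

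Bst2, chr8:71537423-71537722, minus strand: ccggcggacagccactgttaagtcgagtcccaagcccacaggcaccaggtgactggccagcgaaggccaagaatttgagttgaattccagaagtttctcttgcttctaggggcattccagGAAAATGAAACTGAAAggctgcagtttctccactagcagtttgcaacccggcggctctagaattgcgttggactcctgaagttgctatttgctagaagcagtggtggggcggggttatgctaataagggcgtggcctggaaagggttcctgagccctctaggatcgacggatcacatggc

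Epsti1, chr14:77903989-77904288, plus strand: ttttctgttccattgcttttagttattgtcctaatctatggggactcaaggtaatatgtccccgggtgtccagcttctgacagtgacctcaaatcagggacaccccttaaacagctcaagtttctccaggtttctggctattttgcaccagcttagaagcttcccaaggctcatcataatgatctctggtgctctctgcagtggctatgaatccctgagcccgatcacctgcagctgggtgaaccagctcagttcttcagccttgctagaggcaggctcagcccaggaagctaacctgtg

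Isg15 held 3 overlapping matches, the first starting at position -78 from the start site, and Ifit1 held 2, starting at -104 and -85. Rsad2 held 1, at -120, and Bst2 held 2 that overlap, from -130. In Ifitm3 both matches lay after the start site. The Epsti1 window held none.

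Counts are given as unique molecular identifiers (UMIs), 1 for each captured transcript, per 10000 UMIs of the cell. The libraries read 1 end of each transcript, so levels were not divided by length. The module level of a cell was the mean of its 38 deposited values, ln(1 + UMIs per 10000), averaged over the cells of a class in 1 mouse and tissue. Classes were gated by detected marker genes, carry the suffix -like for that reason, and took in 10601 cells, with 20 or more cells required of a sample. Depth differed between tissues, with a median of 15191 UMIs per cell in tumours against 4520 in draining and 4633 in non-draining nodes. Havcr2, the targeted gene, stood at 0.684 and 0.610 UMIs per 10000 in macrophage-like cells of WT1 and WT2 and at 0.0665 and 0.0422 in KO1 and KO2. It was at 1.26 and 1.13 in draining-node type 1 dendritic (cDC1)-like cells of the WT mice and at 0.00526 and 0.0322 in those of the KO mice. In tumour monocyte-like cells the fall was smaller, from 1.10 and 1.55 to 0.620 and 0.593 (adjusted p = 0.122), so the lower level of the targeted gene was not called there. Tumour CD8 T-like cells held 1.503 in WT1 and still 1.143 and 0.504 in KO1 and KO2. Nonclassical monocyte-like cells held 1.268 and 0.704 in WT1 and WT2 and 0.730 in KO1. In CD8 T-like cells of both nodes Havcr2 was at most 0.0149 in any mouse of either genotype. Loss of the gene in these classes was not tested.

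Among all classes the members stood highest in tumour monocyte-like cells, the recently arrived Ly6c2-positive precursors of tumour macrophages and monocyte-derived dendritic cells. Their module level was 0.844 ± 0.0854 (SD, n = 4 mice), from 0.732 to 0.912. Nonclassical monocyte-like cells of the tumour, which patrol vessel walls, followed at 0.689 ± 0.0580 (SD, n = 3), a gap of 0.155 that is larger than either SD. Macrophage-like cells had 0.609 ± 0.0863 (SD, n = 4), and their range of 0.527 to 0.706 overlapped that of nonclassical monocyte-like cells. Tumour CD8 T-like cells came next among classes with 3 or more mice, at 0.377 ± 0.0740 (SD, n = 3).

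In the nodes, plasmacytoid dendritic (pDC)-like cells, the cells known as producers of type I interferon, were highest at 0.367 ± 0.0317 in the draining and 0.335 ± 0.0586 in the non-draining node (SD, n = 4 each). Not every member was high in them. With cells thinned to 2000 UMIs, Ifit3 was detected in 0% of pDC-like cells in each mouse and node, against 1.07% to 3.21% of draining-node CD8 T-like cells. Isg15 was then detected in 3.85% to 11.1% of draining-node pDC-like and 8.18% to 18.4% of CD8 T-like cells. More pDC-like cells held 3 or more members, as given below. Below pDC-like cells, each gap between neighbours in the order of node classes found in 3 or more mice was smaller than the larger of the 2 SDs, though in places above the smaller. These levels ran from type 2 dendritic (cDC2)-like cells of the draining node at 0.283 ± 0.0360 (n = 3) to B-like cells at 0.179 ± 0.0332 in the draining and 0.158 ± 0.0117 in the non-draining node (n = 4 each). Classes found in enough cells in the tumour of WT1 only had no replicate. There, cDC2-like cells were at 0.681, Foxp3 T-like cells at 0.586, cDC1-like cells at 0.524 and mature dendritic cells at 0.461, each above the same class in any node sample. The only Foxp3 T-like node sample held 21 cells. The macrophage marker C1qa was detected in 15.0%, 31.1%, 12.2% and 3.45% of these tumour cells, in the same order. It was in 4.76% of the Foxp3 T-like node cells and in up to 14.3% of a cDC1-like node sample. The part of macrophage RNA in these levels was not tested. With cells thinned to 2000 UMIs the tumour levels were 0.645 ± 0.0722 in monocyte-like, 0.540 ± 0.0583 in nonclassical monocyte-like and 0.440 ± 0.0682 in macrophage-like cells. Tumour CD8 T-like cells then fell below draining-node pDC-like cells, at 0.259 ± 0.0672 and 0.282 ± 0.0266. The order of the other node classes also moved with depth. In the draining node cDC2-like cells were then at 0.189 ± 0.0285, below mature dendritic cells (0.212 ± 0.0217) and CD4 T-like cells (0.200 ± 0.0258). The cDC1-like cells of that node were at 0.130 ± 0.0253. B-like cells were at 0.151 ± 0.0324 in the draining and 0.132 ± 0.00954 in the non-draining node. Cells under 2000 UMIs were left out of these values, 4 of 532 monocyte-like, 1 of 160 nonclassical monocyte-like, 59 of 2372 macrophage-like, 1 of 208 tumour CD8 T-like and 0 of 205 pDC-like cells. Also left out in the draining node were 1 of 134 cDC2-like, 27 of 413 mature dendritic, 19 of 367 CD4 T-like and 0 of 172 cDC1-like cells. For B-like cells these were 142 of 1604 in the draining and 75 of 815 in the non-draining node.

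**Figure D1:**
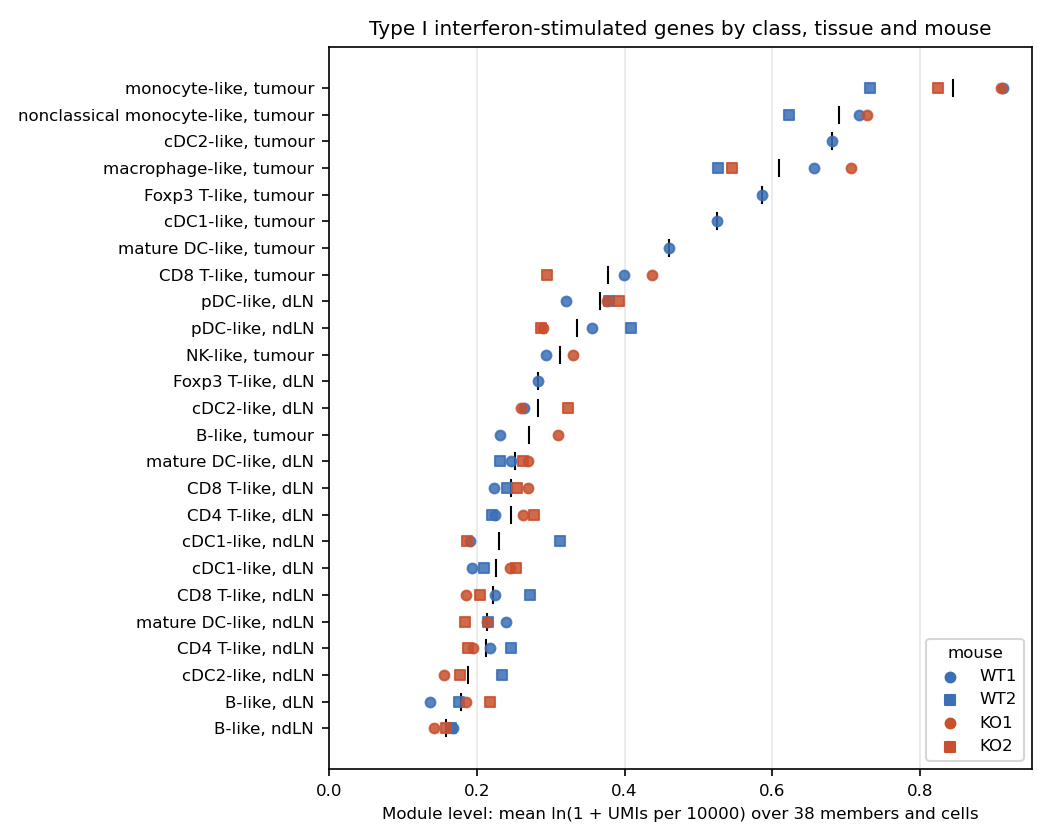
Module level, the mean of ln(1 + UMIs per 10000) over the 38 members, for each class and tissue (rows, in order of their mean) with 1 point for each mouse. The 4 tumour monocyte-like samples lie between 0.732 and 0.912 and the B-like samples of the non-draining node between 0.142 and 0.167.

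Gene by gene, 25 of the 38 members had their highest class mean in tumour monocyte-like cells, 5 in nonclassical monocyte-like cells, 3 in pDC-like cells, 2 in mature dendritic cells, 2 in B-like cells and 1 in macrophage-like cells. Bst2, which ties budding virus to the cell surface, led in pDC-like cells at 51.8 ± 4.9 UMIs per 10000 in the draining and 50.3 ± 3.4 in the non-draining node, and made up 67.1% and 68.9% of all member UMIs there. Epsti1 led in mature dendritic cells at 63.8 ± 20 and 74.4 ± 26, which was 80.7% and 89.1% of all member UMIs. Ifitm3, which blocks viral fusion in endosomes, led in nonclassical monocyte-like cells at 72.2 ± 6.5, ahead of 58.6 ± 5.5 in monocyte-like and 29.6 ± 3.9 in macrophage-like cells. Sp100, a nuclear body protein, was highest at 3.19 ± 0.58 in draining-node B-like cells.

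Single genes carried much of the total in every class. In monocyte-like cells Ifitm3 gave 36.2% of member UMIs, Ifi27l2a 14.9% at 24.1 ± 1.0 and Isg15 8.2% at 13.3 ± 2.8, followed by Irf7 at 7.61 ± 2.1, Bst2 at 6.20 ± 1.2 and Zbp1 at 4.68 ± 0.20. In macrophage-like cells Ifitm3 gave 34.3%, followed by Ifi27l2a at 12.4 ± 1.4, Bst2 at 9.71 ± 1.6, Isg15 at 4.88 ± 1.9, Irf7 at 4.17 ± 1.6 and Lgals3bp at 3.21 ± 0.74 UMIs per 10000. T and B lymphocytes were led by Ifi27l2a, a mitochondrial and nuclear membrane protein, which reached 13.8 ± 3.4 in CD4 T-like, 5.96 ± 0.80 in CD8 T-like and 7.23 ± 2.6 in B-like cells of the draining node. Sp100, Epsti1 and Bst2 took the next places in each of these lymphocyte classes.

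**Figure D2:**
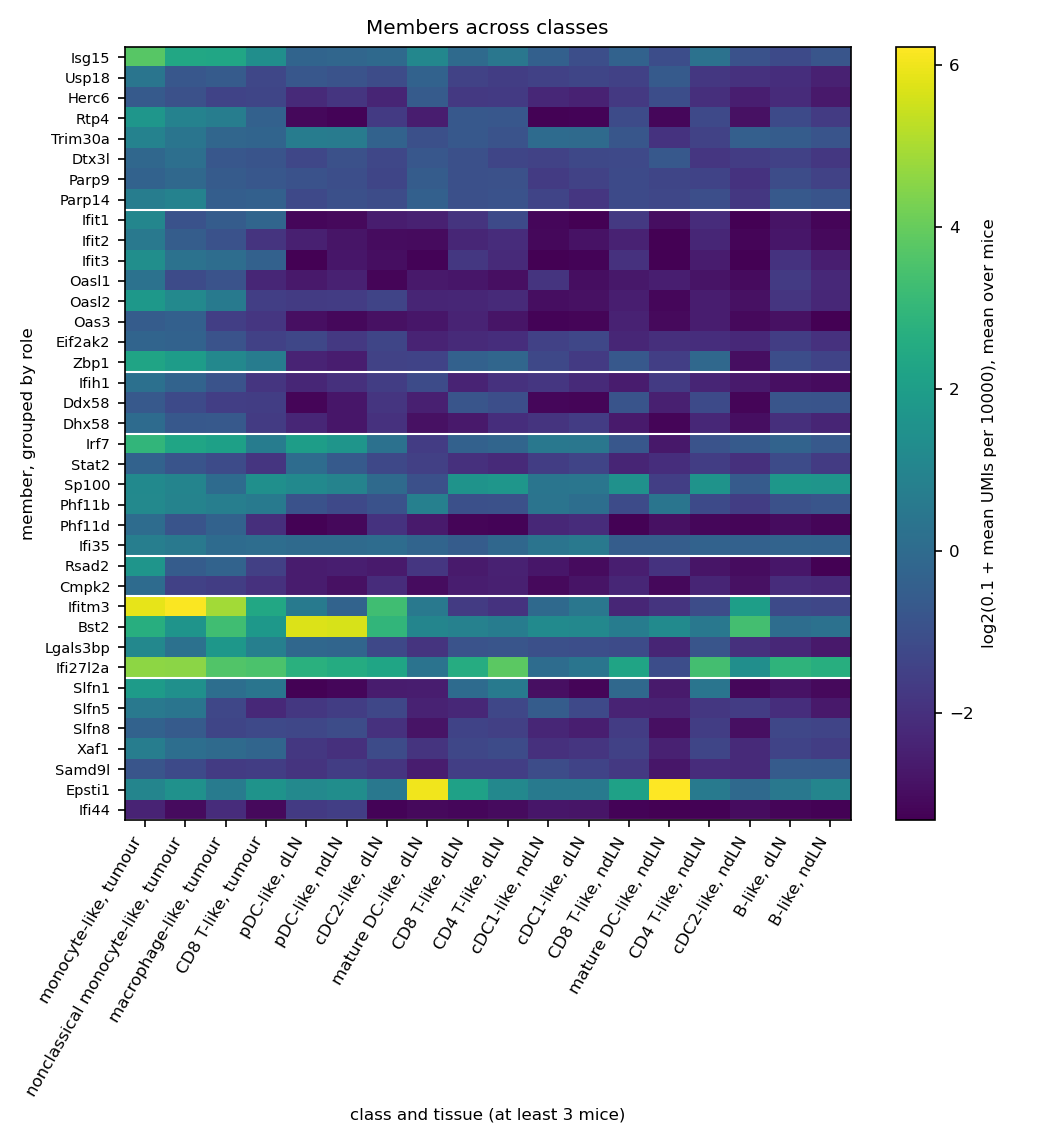
Level of each member, log2(0.1 + mean UMIs per 10000) averaged over mice, by class and tissue for classes with at least 3 mice, with members grouped by role. The tumour monocyte-like column is the highest for 25 of 38 members, while Bst2 in pDC-like and Epsti1 in mature dendritic cells stand out from their rows.

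Across the 76 samples of class, tissue and mouse, most members followed the rest of the set. Pearson's r between a member and the mean of the others was 0.943 for Oasl2, 0.923 for Isg15 and 0.919 for Ifit2. It was 0.213 for Bst2, 0.0508 for Sp100 and -0.226 for Epsti1, the 3 lowest. Outside the set, the genes with levels most like the module among 8756 compared were Irgm1 (0.944), Oas1a (0.940), Ifi204 (0.926), Prdx5 (0.925), Socs3 (0.913), Slc16a3 (0.911), Rnf213 (0.910) and Oas1g (0.907). These values describe samples that share mice, channels and depth, and the high end rests on myeloid cells of the tumour.

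Within a class the members were also unevenly spread over cells. After thinning to 2000 UMIs, 99.2 ± 0.91% of monocyte-like and 95.7 ± 2.9% of macrophage-like cells had a UMI of 3 or more members (SD, n = 4), against 62.0 ± 3.0% of CD8 T-like, 80.5 ± 3.1% of pDC-like and 46.4 ± 11% of B-like cells of the draining node. Left out as shallower were 24 of 1047 CD8 T-like and 142 of 1604 B-like cells of the draining and 75 of 815 B-like cells of the non-draining node. Without thinning, the shares were 99.1% or more in every mouse for both tumour classes. Isg15 was detected in 63.6 ± 3.6% of thinned monocyte-like and 39.7 ± 8.2% of macrophage-like cells, and in 4.49 ± 0.75% of B-like cells of the non-draining node, the lowest of the lymphocyte classes. Ifit1, a protein that binds foreign RNA caps, was detected in 16.7 ± 3.2% of monocyte-like, 8.39 ± 2.8% of macrophage-like and 0.162 ± 0.32% of those B-like cells. Ifit1-positive monocyte-like cells carried 41.3 to 61.3 UMIs of the other members per 2000 in the 4 mice, and the remaining monocyte-like cells 24.1 to 30.0. For macrophage-like cells the ranges were 20.9 to 32.4 and 13.2 to 19.5. Cells with Ifit1 were above the rest in each of the 4 mice in both classes, a comparison within samples that was not tested. The values of KO2 rest on 7 monocyte-like and 17 macrophage-like cells with Ifit1. Among other samples with 5 or more such cells, only draining-node mature dendritic cells of WT1 were below the rest, at 16.6 against 19.9. Nonclassical monocyte-like cells of WT1 were at 33.0 against 30.9.

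Set against macrophage-like cells of the same tumours, monocyte-like cells had higher levels of most members. Differences were taken on log2(0.1 + UMIs per 10000) with the mouse as a term in limma, and were called at a Benjamini-Hochberg adjusted p under 0.05 over all 9025 genes tested. Of the 38 members 33 were higher and 2 lower, where 13.5% of all genes were called higher and 13.2% lower. The median difference of the members was 0.96 and that of all genes -0.020.

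RNA-binding antiviral genes were higher in 8 of 8, the RNA sensors in 3 of 3 and the viperin pair in 2 of 2. The count was 7 of 8 for Isg15 and its group, 6 of 7 for the schlafen group and 5 of 6 for the nuclear regulators. Isg15 stood at 15.8, 9.38, 13.3 and 14.6 UMIs per 10000 in monocyte-like cells of WT1, WT2, KO1 and KO2, and at 6.53, 3.58, 6.41 and 3.0 in their macrophage-like cells. No monocyte-like sample overlapped the macrophage-like range, and the difference was 1.48 (SE 0.220, adjusted p = 7.4e-05). Rsad2, which makes a chain-terminating nucleotide, was at 4.74, 0.933, 4.09 and 2.38 against 1.11, 0.557, 0.972 and 0.284. Here WT2 monocyte-like cells fell below the macrophage-like cells of WT1 and KO1, though each mouse had more in its monocyte-like cells, and the difference was 1.83 (SE 0.283, adjusted p = 0.00011).

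Slfn5, an interferon-induced regulator of growth, had 1.51, 1.27, 1.60 and 1.02 against 0.388, 0.255, 0.370 and 0.224, a difference of 1.83 (SE 0.170). Slfn1 was at 4.15, 2.94, 4.07 and 3.55 against 1.16, 0.809, 1.31 and 0.686, a difference of 1.82 (SE 0.116, adjusted p = 5.2e-09). Neither schlafen overlapped between the classes. Ifit1 differed by 1.54 (SE 0.259), Cmpk2 by 1.43, Ifit2 by 1.39, Ifit3 by 1.28, Oasl2 by 1.22, Parp14 by 1.18 and Sp100 by 1.18. The 22 other members called higher lay between 0.40 for Epsti1 and 1.17 for Oasl1, with Ifitm3 at 0.99, Ifi27l2a at 0.97 and Irf7 at 0.89.

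Both genes called lower in monocyte-like cells encode surface or secreted proteins. Bst2 was at 5.91, 4.73, 7.58 and 6.58 against 9.54, 7.77, 11.8 and 9.72 in macrophage-like cells, with no overlap (-0.64, SE 0.109). Lgals3bp, a secreted galectin ligand, was at 1.90, 1.54, 2.57 and 2.42 against 3.41, 2.32, 4.09 and 3.02, where KO1 and KO2 monocyte-like cells reached past the macrophage-like cells of WT2 (-0.58, SE 0.136). Ifi44 (-0.29), Parp9 (0.23) and Phf11d (0.34) did not pass.

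**Figure D3:**
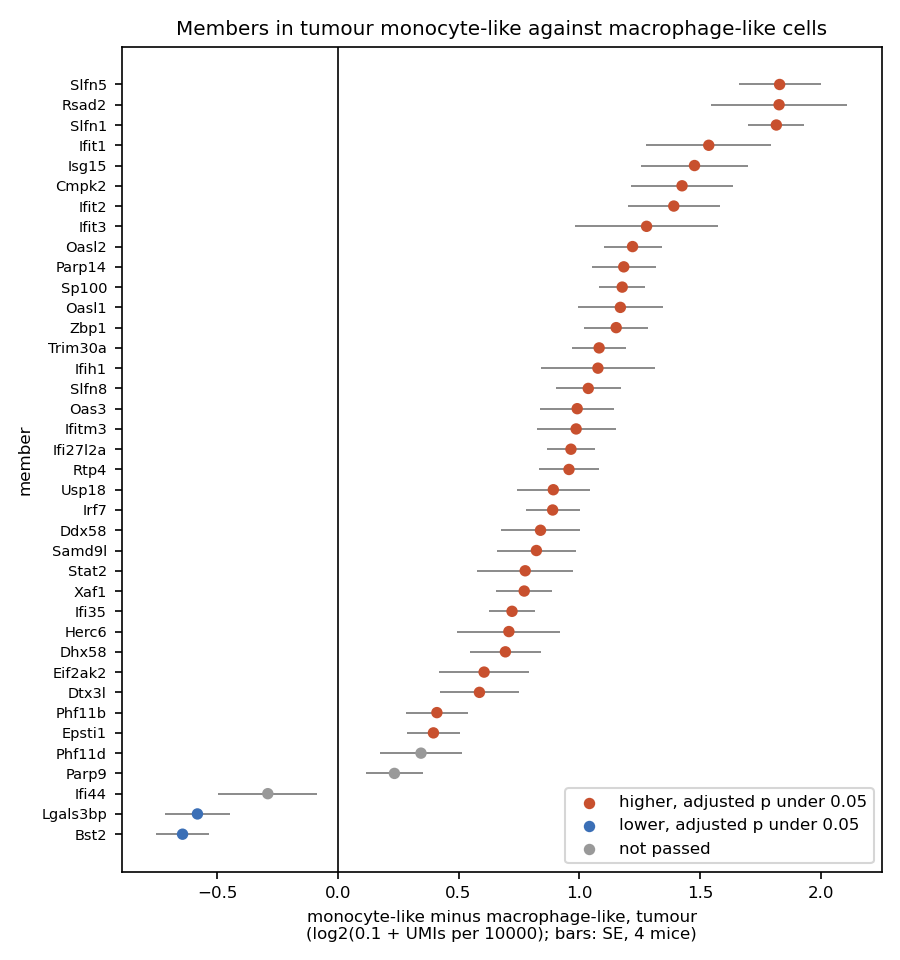
Difference between tumour monocyte-like and macrophage-like cells for each of the 38 members, on log2(0.1 + UMIs per 10000), with bars of 1 SE over 4 mice and colour for the call. Of the 38, 33 lie to the right and are called, while Bst2 (-0.64) and Lgals3bp (-0.58) are called to the left.

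Other genes of the pathway moved in the same contrast. The receptor chain Ifnar1 was higher in monocyte-like cells by 0.53 and Ifnar2 was at 0.12 (adjusted p = 0.567). Among the signal transducers, Jak1 (0.72), Jak2 (0.96), Irf9 (0.45) and Irf1 (1.11) were higher. Of 5 negative regulators, Socs1 (1.19), Socs3 (1.40), Ptpn1 (0.89) and Ptpn2 (0.51) were higher. Of 32 further type I targets 25 were higher, among them Ifi205 (2.04), Ifit1bl1 (1.65), Ms4a4c (1.64) and Mx1 (0.91), and Ly6a was lower (-0.42). The largest of them, Ly6c2 (3.91), is a marker of the monocyte gate, so its difference is set by the choice of cells. Genes known mainly for interferon gamma were higher in 12 of 17, with Cxcl10 (1.56), which is in both lists, Gbp2 (1.45) and Gbp5 (1.24). Of 20 listed interferon ligands 0 were among the genes of the matrix.

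Median UMIs per cell ran from 20720 to 21292 over the mice in macrophage-like cells and from 9899 to 10594 in monocyte-like cells. At 2000 UMIs per cell, 21 members were higher and 1 lower among those that passed the detection filter at that depth. The summed 8 macrophage markers were at 19.5 to 23.6 UMIs per 10000 in monocyte-like and 226 to 289 in macrophage-like cells, and the 8 classical monocyte markers at 73.9 to 98.7 and 7.96 to 15.8. The part of these markers' cells in the differences was not tested.

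The dendritic cell classes of the nodes divided the members differently. Against cDC2-like cells of the draining node, pDC-like cells were higher in 7 and lower in 6 of 31 members tested, where 18.9% of 8425 genes were called higher and 10% lower. For the non-draining node the counts were 11 and 1 of 28, with 19.8% and 8.8% of 8223 genes. The cDC2-like cells came from WT1, KO1 and KO2 in the draining and from WT2, KO1 and KO2 in the non-draining node. Their module level was 0.283 in the first and 0.189 in the second. Differences between the nodes in these lists, and in those of mature dendritic and cDC1-like cells below, thus also involve the reference. Its part was not tested. Bst2 was at 54.1, 55.4, 44.6 and 53.2 UMIs per 10000 in draining-node pDC-like cells of WT1, WT2, KO1 and KO2 and at 7.34, 8.58 and 6.91 in cDC2-like cells of WT1, KO1 and KO2 (2.73, SE 0.152, adjusted p = 4.5e-15). In the non-draining node the difference of Bst2 was 2.30 (SE 0.188).

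Irf7 was at 2.93, 5.01, 3.32 and 4.41 in these pDC-like cells, every one above the 0.930 to 1.3 of cDC2-like cells (1.80, SE 0.376), and differed by 2.29 in the other node. Stat2 (1.29 and 1.33), Sp100 (1.28 and 1.53), Lgals3bp (1.22 and 1.89), Trim30a (1.07 and 1.18) and Epsti1 (0.66 and 1.41) were higher in both nodes. Slfn8 (1.79), Usp18 (1.29), Ifi27l2a (1.02) and Parp9 (0.98) were higher in the non-draining node. Ifitm3 went the other way in both, at 0.812 to 2.54 in draining-node pDC-like cells and 8.87 to 10.5 in cDC2-like cells (-2.71 and -2.57). Phf11d (-1.35), Ddx58 (-1.18), Rtp4 (-0.98), Zbp1 (-0.93) and Ifih1 (-0.69) were lower in the draining node.

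The receptor was higher in pDC-like cells as well, Ifnar1 by 1.74 and 2.29 and Ifnar2 by 1.76 and 1.61 in the draining and non-draining nodes. Irf9 (0.57 and 0.90) and the nucleic acid sensing genes Tlr7 (2.39 and 3.13), Tlr9 (0.93 and 0.71) and Unc93b1 (2.13 and 2.40) were higher in both nodes.

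Mature dendritic cells, the Ccr7-positive migrating state, were set apart by Epsti1, a gene named for its induction in epithelial cells by stroma. Its level was 84.2, 78.4, 49.8 and 43.0 UMIs per 10000 in the draining node and 107, 71.8, 74.8 and 44.2 in the non-draining node of WT1, WT2, KO1 and KO2. In cDC2-like cells it was 0.543 to 1.49. The difference was 5.45 (SE 0.195) in the draining and 6.20 (SE 0.206) in the non-draining node. All together 8 members were higher and 16 lower of 31 in the draining node, where 15.6% and 30.9% of genes were called. In the non-draining node 7 were higher and 6 lower of 28, where 16.1% and 26.9% were called.

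Phf11b (1.65 and 2.09), Herc6 (1.76 and 1.53), Usp18 (0.79 and 1.65) and Parp9 (0.89 and 0.64) were higher with Epsti1 in both nodes. Isg15 (1.3), Parp14 (0.77) and Dtx3l (0.60) were called in the draining node and Zbp1 (1.35) and Ifih1 (0.87) in the other. Thus 6 of 8 genes of the Isg15 group were higher in the draining node. Lower in both were Ifitm3 (-3.43 and -3.89), Irf7 (-2.46 and -2.06), Ifi27l2a (-2.33 and -2.74), Bst2 (-1.98 and -2.13), Sp100 (-1.07 and -1.0) and Trim30a (-0.72 and -1.46). In the draining node Eif2ak2, Slfn5, Slfn8, Oasl2, Dhx58, Cmpk2, Xaf1, Samd9l, Phf11d and Lgals3bp were lower too, by -0.63 to -1.08. At 2000 UMIs per cell 4 were higher and 6 lower in that node, among members that passed the detection filter at that depth.

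Pathway genes split in the same way in mature dendritic cells. Ube2l6, the enzyme that passes Isg15 on to its targets, was higher by 2.92 and 3.85 and Uba7, which activates Isg15, by 1.96 and 1.60. Irf1 (2.57 and 2.65), Socs1 (1.98 and 2.52), Gbp2 (3.75 and 3.45) and Mx1 (1.78 and 2.22) were higher, while Ifnar2 (-0.56 and -0.54), Myd88 (-1.73 and -2.47), Socs3 (-1.31 and -1.76) and Ly6e (-4.15 and -5.39) were lower.

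cDC1-like cells, the cross-presenting dendritic cells, were then set against cDC2-like cells. In the draining node 2 of 31 were higher and 7 lower, where 7.94% and 12.6% of genes were called, and in the non-draining node 8 of 28 were higher and 3 lower, where 6.41% and 9.69% were. Ifitm3 (-2.95 and -2.22), Bst2 (-1.85 and -2.20) and Ifi27l2a (-1.97 and -1.43) were lower in both. Phf11b was higher in both (1.11 and 2.04). Oasl2 (-1.40), Ddx58 (-1.15), Rtp4 (-1.11) and Parp14 (-0.70) were lower and Ifi35 (0.51) higher in the draining node. Zbp1 (1.74), Samd9l (1.04), Dhx58 (0.99), Lgals3bp (0.99), Irf7 (0.98), Sp100 (0.91) and Epsti1 (0.63) were higher in the non-draining node. These counts fell without 1 mouse or at equal depth, to 3 in all at 2000 UMIs in the draining node and to 6 without WT2 and 7 without KO1 in the other. In the draining node they were 5 without KO2.

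CD8 T-like against CD4 T-like cells showed 1 member higher and 2 lower of 31 in the draining node, where 1.5% and 3.92% of genes were called, and 1 and 1 of 28 in the non-draining node, where 1.05% and 2.43% were. Epsti1 was higher in CD8 T-like cells (1.05 and 1.56) and Ifi27l2a lower (-1.18 and -1.12). Slfn5 was lower in the draining node (-0.87). Trim30a (0.67), Dtx3l (0.61), Stat2 (-0.61) and Zbp1 (-0.63) came closest without passing in the non-draining node. Epsti1 stood at 3.86, 4.30, 4.85 and 4.28 in draining-node CD8 T-like cells and at 3.14, 2.26, 1.49 and 1.57 in CD4 T-like cells, with no overlap.

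B-like against CD4 T-like cells showed 2 higher and 9 lower of 31 in the draining node, where 11.7% and 12.1% of genes were called. In the non-draining node they showed 1 and 3 of 28, where 10.9% and 10.1% were. Slfn1, known for its part in T-cell quiescence, was at 0.0301 to 0.0492 in draining-node B-like cells and at 1.03 to 1.67 in CD4 T-like cells (-3.41 in both nodes). Lgals3bp (-1.5 and -1.82) and Zbp1 (-0.90 and -1.3) were lower and Samd9l higher (0.98 and 1.5) in both nodes. Isg15 (-1.58), Ifi27l2a (-0.98), Ifih1 (-0.90), Slfn5 (-0.73), Epsti1 (-0.62) and Bst2 (-0.60) were lower and Stat2 (1.06) higher in the draining node.

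CD8 T-like cells were the lymphocytes found in the tumour of 3 mice. Against the draining node, 15 members were higher and 2 lower of 34 in the tumour, where 22.5% and 8.86% of 7654 genes were called, and the median was 0.53 for members and 0.14 for all genes. Ifitm3 was at 6.59, 6.41 and 2.45 UMIs per 10000 in the tumours of WT1, KO1 and KO2 and at 0.0674 to 0.375 in the 4 draining nodes (3.77, SE 0.193, adjusted p = 1.2e-08). Isg15 was at 3.09, 3.72 and 0.776 against 0.616 to 1.14, where the tumour of KO2 fell within the range of the nodes (1.04, SE 0.310). Ifi27l2a was at 8.84, 12.3 and 12.8 against 4.98 to 6.66 (0.88, SE 0.085).

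Lgals3bp (1.56), Phf11b (1.55), Ifit1 (1.33), Xaf1 (1.13), Ifit3 (1.13), Zbp1 (1.04), Irf7 (1.04), Dhx58 (0.93), Bst2 (0.87), Oasl2 (0.79), Parp14 (0.67) and Ifi35 (0.61) were the others called higher. Ddx58 (-0.85) and Epsti1 (-0.59) were lower. Genes known mainly for interferon gamma were higher in 13 of 14, and Socs1 by 2.28 and Irf8 by 3.90. The 8 macrophage markers summed to 32.0 to 46.7 UMIs per 10000 in tumour CD8 T-like cells and to at most 4.32 in the draining node, and C1qa was detected in 15.4% to 26.0% of them against 0.897% to 7.58%. Macrophage-like cells of these tumours held Ifitm3 at 29.6, and the part of their RNA in the difference was not tested. Without WT1 the members called numbered 10 in all, without KO2 26, and at 2000 UMIs 9.

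Between the genotypes no member was called in any of 13 comparisons of KO with WT mice, each of 2 mice against 2. The difference was taken on the mean over cells of log2(1 + UMIs per 10000), with the cell means of a class sharing 1 estimate of spread. Calls were rare among all genes too, at 0.0311% in macrophage-like, 0.0123% in monocyte-like and 0.0549% in draining-node cDC1-like cells. In the draining and non-draining nodes they were 0% and 0.0242% for pDC-like cells, 0.0285% and 0% for mature dendritic cells, 0.0139% and 0% for CD8 T-like cells, 0% and 0% for CD4 T-like cells and 0.0162% and 0.0162% for B-like cells. Between 0 and 11 members of a comparison had an unadjusted p under 0.05, where 1.06% to 8.71% of all genes did. These were 11 of 27 in pDC-like cells of the non-draining node (6.32% of all genes) and 0 of 33 in CD8 T-like cells of the draining node (1.06%). With limma-voom on summed UMIs, 3 members were called in mature dendritic cells of the draining node (0.498% of all genes) and 1, Epsti1, in both CD4 T-like cells of the draining (0.0146%) and B-like cells of the non-draining node (0.0486%).

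In tumour macrophage-like cells 25 of 38 members were above 0, against 44% of all genes, and both KO mice were above both WT mice in 3 of 38, against 15.3%. The members with the smallest p were Dtx3l (0.078, adjusted p = 0.720), Bst2 (0.32), Ifitm3 (0.30), Cmpk2 (-0.038), Samd9l (-0.015) and Ifi27l2a (-0.090). Mice of 1 channel were alike: Irf7 was at 4.78 in WT1 and 6.23 in KO1 of the first channel and at 2.75 in WT2 and 2.94 in KO2 of the second. With the channel as a replicate block 4.42% of all genes were called. Of the 38 members 6 were called, higher in KO mice, namely Irf7 (0.26, adjusted p = 0.00676), Lgals3bp (0.25, adjusted p = 0.00676), Bst2 (0.32, adjusted p = 0.0145), Ifi44 (0.056), Parp9 (0.10) and Ifitm3 (0.30, adjusted p = 0.0381). Bst2 was at 9.54 and 7.77 in WT1 and WT2 and at 11.8 and 9.72 in KO1 and KO2, higher in the KO mouse of each channel. The count above 0 changed with the mouse left out, from 38 of 38 without KO2 and 36 without WT1 to 8 without WT2 and 6 without KO1. Each of these fits leaves the channels unequal between the genotypes, so the counts do not tell a mouse from its channel. Module levels were 0.656 in WT1 and 0.706 in KO1 of the first channel. They were 0.527 in WT2 and 0.546 in KO2 of the second. The summed macrophage markers were at 279 to 289 UMIs per 10000 in KO and 226 to 275 in WT mice, and the classical monocyte markers at 7.96 to 8.38 and 10.2 to 15.8. Their part in the result was not tested. Genes known mainly for interferon gamma were above 0 in 17 of 17, against the 44% of all genes, with none called. Their counts with 1 mouse left out are not given here.

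In monocyte-like cells 25 of 38 were above 0, against 52.7% of all genes, and both KO mice were above both WT mice in 5 of 38, against 19.5%. Lgals3bp (0.37, adjusted p = 0.382), Ifi44 (0.078), Bst2 (0.34), Dtx3l (-0.18), Herc6 (-0.096) and Phf11b (-0.12) came first by p. Lgals3bp was called with the channel as a replicate block (adjusted p = 0.0188), where 0.629% of all genes were. Without WT2 9 of 38 were above 0 and without WT1 35 of 38. The classical monocyte markers were at 73.9 to 74.8 in KO and 86.7 to 98.7 in WT mice.

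In the draining node the share of members above 0 in KO mice was larger than that of all genes in each of 6 classes, with none called. B-like cells of the draining node had 23 of 23 above 0 (47.1% of all genes) and both KO mice above both WT mice in 8 of 23 (15.9%). CD8 T-like cells had 27 of 33 (55.4%) and 18 of 33 (20%), CD4 T-like cells 24 of 28 (53.2%) and 10 of 28 (18.2%), pDC-like cells 20 of 27 (50.4%) and 14 of 27 (17.4%), cDC1-like cells 25 of 32 (56.9%) and 14 of 32 (19.5%), and mature dendritic cells 18 of 23 (42.2%) and 8 of 23 (14.9%). The medians of the members lay between 0.044 and 0.077. They stayed above 0 without any 1 mouse, between 0.024 (mature dendritic cells without WT2) and 0.13 (pDC-like cells without WT2). Without WT1 the median was 0.031 in pDC-like cells, with 15 of 27 above 0, and 0.044 in B-like cells, with 18 of 23. Without KO1 14 of 24 were above 0 in mature dendritic cells.

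In the non-draining node the shares ran lower. There, 1 of 27 was above 0 in pDC-like cells (53.4% of all genes), with both KO mice below both WT mice in 17 of 27 (14.7%). CD8 T-like cells had 2 of 33 above 0 (50.7%) and 12 of 33 with both KO mice below (14.5%), CD4 T-like cells 7 of 28 (51.2%) and 8 of 28 (13.4%), mature dendritic cells 9 of 23 (41%) and 5 of 23 (23.9%), and B-like cells 7 of 23 (42.4%) and 4 of 23 (21.5%). Mature dendritic cells were near the share of all genes in both counts. B-like cells were not above it in the count of members with both KO mice below, and their median was near the -0.0098 of all genes. The medians lay between -0.15 in pDC-like and -0.0079 in B-like cells. In B-like cells the median was 0.0029 without KO1, with 12 of 23 above 0. Without WT2 it was -0.0085 in CD4 T-like cells, with 13 of 31 above 0, and -0.031 in CD8 T-like cells, with 6 of 33. In mature dendritic cells it was -0.011 without WT1, and in pDC-like cells it stayed between -0.16 and -0.11 without any 1 mouse. The classes of a node come from the same mice and channels and are not independent of each other.

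Mature dendritic cells of the draining node held the 3 members with the smallest adjusted p of all 13 comparisons. Ifitm3 was at 0.382, 0.0937, 1.09 and 3.85 UMIs per 10000 in draining-node cells of WT1, WT2, KO1 and KO2 (0.45, adjusted p = 0.0645) and Isg15 at 0.743, 0.805, 3.40 and 3.25 (0.43, adjusted p = 0.249). Neither overlapped between the genotypes. Epsti1, at 84.2 and 78.4 against 49.8 and 43.0, differed by -1.24 (adjusted p = 0.296) and was called with the channel as a replicate block (adjusted p = 0.0118), where 0.0854% of all genes were. Ifi27l2a (0.32), Eif2ak2 (-0.053) and Bst2 (-0.21) were the others by smallest p. KO1 and KO2 gave 38 and 23 of these cells, and without KO1 8 of 24 members were called, where 13.2% of all genes were. The markers of dendritic cells summed to 25.9 to 28.8 UMIs per 10000 in the KO and 15.7 to 18.6 in the WT mice, and their part in the result was not tested.

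In pDC-like cells of the non-draining node Isg15 was at 0.447 and 2.52 in WT and 0.116 and 0.0388 in KO mice (-0.45, adjusted p = 0.404), with Dtx3l (-0.35) and Ifi27l2a (-0.70) next and Parp9 (0.017) alone above 0. Nonclassical monocyte markers there summed to 12.7 in KO and to 3.56 to 10.9 in WT mice, and their part was not tested. Dhx58 (0.15), Xaf1 (0.18), Ifitm3 (0.35), Bst2 (-0.26), Stat2 (-0.15) and Epsti1 (-0.19) led in the draining node. In draining-node cDC1-like cells Irf7 (0.42), Sp100 (0.36), Xaf1 (0.15), Ifi27l2a (-0.12), Samd9l (-0.047) and Dtx3l (-0.034) had the smallest p. The smallest adjusted p among these was 0.404.

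Among lymphocytes of the draining node the smallest p belonged to Samd9l (0.067), Rtp4 (0.10), Ifih1 (0.054), Parp14 (-0.032), Zbp1 (-0.044) and Stat2 (-0.011) in CD8 T-like cells. In CD4 T-like cells it belonged to Rtp4 (0.28), Ifit1 (0.17), Slfn1 (0.24), Samd9l (-0.023), Bst2 (-0.015) and Ifih1 (-0.0051), and in B-like cells to Slfn8 (0.10), Trim30a (0.17) and Oasl1 (0.077). In the non-draining node these were Samd9l (0.017), Slfn1 (0.012), Ifi27l2a (-0.58), Bst2 (-0.25) and Rtp4 (-0.18) in CD8 T-like cells. CD4 T-like cells had Trim30a (0.12), Zbp1 (0.14), Parp14 (0.10), Xaf1 (-0.25), Ifi27l2a (-0.57) and Ddx58 (-0.18), and B-like cells Oasl2 (0.046), Sp100 (0.10), Slfn8 (0.027), Bst2 (-0.21), Ifi27l2a (-0.37) and Epsti1 (-0.18). Mature dendritic cells of that node had Phf11b (0.32), Rsad2 (0.058), Lgals3bp (0.037), Slfn5 (-0.11), Epsti1 (-0.75) and Ifi35 (-0.20). The smallest adjusted p among them was 0.489, of Bst2 in B-like cells.

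The pathway above the members showed no call either. Over the 13 comparisons the KO minus WT difference ran from -0.13 to 0.17 for Ifnar1, from -0.18 to 0.34 for Ifnar2 and from -0.098 to 0.084 for Irf9.

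**Figure D4:**
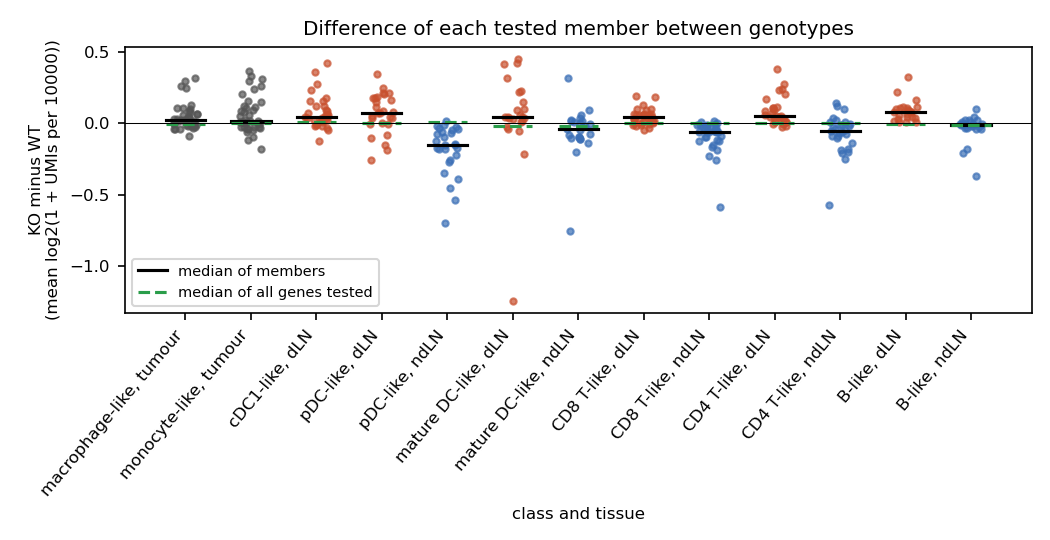
KO minus WT difference of each tested member (points) on the mean of log2(1 + UMIs per 10000), by class and tissue, with the median of the members (black) and of all genes tested (green). Grey is tumour, red the draining and blue the non-draining node. No point is called, and the medians of the members run from -0.15 in pDC-like cells of the non-draining node to 0.077 in B-like cells of the draining node.

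The 2 nodes of each mouse were then compared directly. In KO mice the module level was higher in the draining than in the non-draining node in every class measured in both, by 0.0863 and 0.106 in pDC-like cells of KO1 and KO2, by 0.0826 and 0.0503 in CD8 T-like, 0.0679 and 0.0899 in CD4 T-like, 0.0440 and 0.0600 in B-like, 0.0555 and 0.0785 in mature dendritic and 0.105 and 0.147 in cDC2-like cells. In WT1 and WT2 it differed by -0.0350 and -0.0306 in pDC-like, -0.00123 and -0.0310 in CD8 T-like, 0.00737 and -0.0266 in CD4 T-like, -0.0302 and 0.00967 in B-like and 0.00593 and 0.0159 in mature dendritic cells. In these 5 classes both KO values were above both WT values. Among the non-draining nodes, that of WT2 had the highest module level in pDC-like, cDC1-like, cDC2-like, CD8 T-like and CD4 T-like cells. The node difference of WT1 was also below those of both KO mice in the 5 classes. These differences between genotypes in the module level were not tested.

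**Figure D5:**
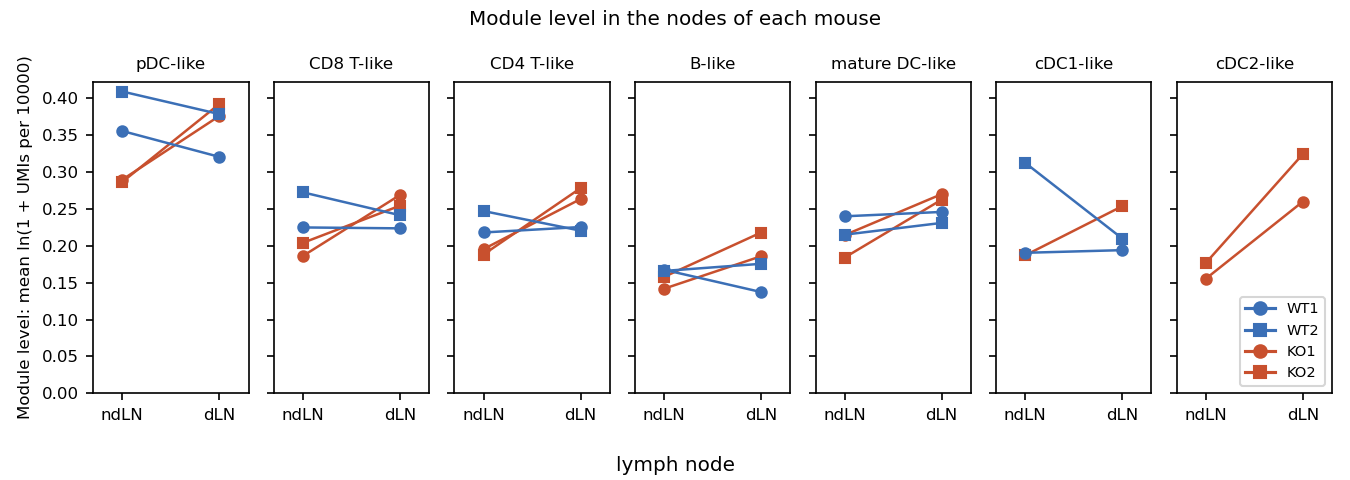
Module level in the non-draining (ndLN) and draining (dLN) node of each mouse, with 1 line a mouse and 1 panel a class. Every line of a KO mouse rises, by 0.0440 to 0.147, and lines of WT1 and WT2 change by -0.103 to 0.0159. The cDC1-like panel has no line of KO1, and the cDC2-like panel has none of WT1 or WT2.

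Gene by gene, the difference between the genotypes in the draining node minus that in the non-draining node was tested with the mouse as a term. In CD8 T-like cells 27 of 27 members were above 0, against 53.2% of all genes, and 2 were called higher, where 0.0438% of 6856 genes were. Ifi27l2a was at 4.98, 5.64, 6.55 and 6.66 UMIs per 10000 in the draining nodes of WT1, WT2, KO1 and KO2 and at 4.23, 7.53, 2.50 and 4.35 in the non-draining nodes. The KO mice were highest in the first and KO1 lowest in the second, and the difference was 0.77 (SE 0.149, adjusted p = 0.0144). Rtp4, which limits flavivirus growth, was at 0.317, 0.498, 0.611 and 0.624 in the draining and 0.286, 0.683, 0.244 and 0.183 in the non-draining nodes, with no overlap of the genotypes in either (0.29, SE 0.0609, adjusted p = 0.0391). Ifit3 followed at 0.15 (adjusted p = 0.158). Both calls were lost without WT2, without KO1, with a detection filter of 10% of cells or none, and with 1 more marker in the gate. Without WT1 the calls were Ifi27l2a and Isg15, and without KO2 Ifi27l2a and Irf7. On log2(0.1 + UMIs per 10000) the called members were 5, with Isg15, Ifit1 and Ifit3 added, where 0.219% of all genes were called.

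No member was called in the other 4 classes, where 0% of all genes were called higher in each. An unadjusted p under 0.05 was reached by 12 of 27 members in pDC-like (4.95% of all genes), 3 of 22 in mature dendritic (4.42%), 7 of 28 in CD4 T-like (4.55%) and 4 of 22 in B-like cells (5.36%). The members above 0 were 24 of 27 in pDC-like cells (46.4% of all genes), 18 of 22 in mature dendritic cells (50.8%), 23 of 28 in CD4 T-like cells (51%) and 20 of 22 in B-like cells (54.2%). Isg15 (0.66), Xaf1 (0.33) and Ifi27l2a (0.86) came first in pDC-like cells, where Bst2 (-0.21), Slfn8 (-0.021) and Epsti1 (-0.032) were below 0. Isg15 there was at 0.218, 0.572, 0.702 and 1.49 in the draining nodes of WT1, WT2, KO1 and KO2 and at 0.447, 2.52, 0.116 and 0.0388 in the non-draining nodes, so that it was lower in the draining node of both WT mice and higher in that of both KO mice. Ifitm3 (0.55), Isg15 (0.47), Ifi27l2a (0.46), Epsti1 (-0.49), Bst2 (-0.31) and Eif2ak2 (-0.032) came first in mature dendritic cells. CD4 T-like cells had Ifi27l2a (0.96), Ifit1 (0.27), Xaf1 (0.35), Trim30a (-0.11), Zbp1 (-0.11) and Herc6 (-0.026). B-like cells had Ifi27l2a (0.69, adjusted p = 0.101), Bst2 (0.31), Trim30a (0.20), Ifitm3 (-0.013) and Eif2ak2 (-0.00038).

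The median of the members was 0.11 in CD8 T-like, 0.19 in pDC-like, 0.12 in mature dendritic, 0.082 in CD4 T-like and 0.083 in B-like cells, and that of all genes between -0.0099 and 0.0071. With 1 mouse left out at a time, the lowest shares above 0 were 21 of 27 in CD8 T-like cells (without KO1), 22 of 27 in pDC-like cells (without WT1), 15 of 22 in mature dendritic cells (without WT2), 24 of 31 in CD4 T-like cells (without WT2) and 16 of 23 in B-like cells (without WT1). The median was 0.042 without WT1 and 0.13 without WT2 in B-like cells, and 0.068 without KO2 in mature dendritic cells. The genotype contrasts within each node are the parts of this difference and no separate evidence.

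Over all mice no member was called between the draining and non-draining nodes, and an unadjusted p under 0.05 was reached by 7 of 22 in mature dendritic (4.88% of all genes), 1 of 27 in cDC1-like (5.16%) and 3 or 4 in the other classes (5.31% to 5.91%). The members above 0 were 26 of 27 in CD8 T-like (55.7% of all genes), 25 of 28 in CD4 T-like (51%), 18 of 22 in B-like (53.5%), 18 of 22 in mature dendritic (55.8%), 20 of 27 in pDC-like (56.9%) and 11 of 27 in cDC1-like cells (52.8%). Calls among all genes were 0.0146%, 0%, 0%, 0%, 0.0121% and 0.145% of these classes in the same order. Rtp4 (0.11), Ifi27l2a (0.25), Irf7 (0.098) and Ifi35 (-0.0038) had the smallest p in CD8 T-like cells, and Ifi27l2a (0.36), Irf7 (0.16), Ifit1 (0.10), Stat2 (-0.041), Zbp1 (-0.031) and Eif2ak2 (-0.00041) in CD4 T-like cells. B-like cells had Stat2 (0.071), Ifitm3 (0.052), Oasl1 (0.050), Isg15 (-0.035), Phf11b (-0.041) and Epsti1 (-0.046). In dendritic cells the first were Isg15 (0.35), Parp14 (0.24), Ifitm3 (0.26), Epsti1 (-0.33), Bst2 (-0.17) and Eif2ak2 (-0.025) of mature cells, Stat2 (0.27), Ifi27l2a (0.32), Sp100 (0.23), Epsti1 (-0.10), Ifih1 (-0.035) and Parp14 (-0.037) of pDC-like cells and Ifitm3 (0.11), Ifi35 (0.14), Ifi27l2a (0.079), Slfn5 (-0.15), Zbp1 (-0.11) and Isg15 (-0.15) of cDC1-like cells. Without WT2, Ifi27l2a, Isg15 and Rtp4 were called higher in the draining node in CD8 T-like cells, where 0.0725% of all genes were called.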

How the data were processed

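Cells from 12 samples of 4 mice were told apart by CD45 antibody tags, pooled in 2 droplet channels and sequenced with a 5′ kit, and the submitters' processing notes name Cell Ranger 3.0.2 and mm10. The matrix as deposited holds natural log values, which read as ln(1 + UMIs per 10000 UMIs of the cell), since the back-transformed values of each cell sum to 10000. They gave back whole UMIs for 100% of values within 0.01. How the authors chose cells and genes for the matrix is not given in the sources.

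Cell classes were gated by detected marker genes with Python 3.11.15, numpy 2.4.6, scipy 1.17.1 and pandas 2.3.3. The gates were set after marker detection had been seen, without the members. Of 12458 cells 10601 passed 1 gate, 33 passed several and 1824 none, and both of these last sets were left out. No doublet caller was run. Samples under 20 cells of a class were dropped, and a gene entered a test with a UMI in 5% or more of its cells. Means per mouse were tested with limma 3.58.1 (trend, R 4.3.3), and p-values were adjusted by Benjamini-Hochberg over all genes of a comparison. Every adjusted p in the text is from limma. KO minus WT, the genotype difference between nodes and draining minus non-draining used the mean of log2(1 + UMIs per 10000). Class and tumour contrasts used log2(0.1 + mean UMIs per 10000). All but KO minus WT had the mouse as a term. Scripts were tested on simulated data.

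WT1 and KO1, and WT2 and KO2, pair by their shared droplet channel, as the labels state. The correlation of the paired mice's deviations from their group means ran from -0.018 to 0.65 over 13 comparisons. Alternatives covered the log scale, detection filter, depth, gate, mitochondrial share, centring, block, limma-voom and each mouse left out.

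The members and all gene lists were chosen with earlier results of these data known. The genes named were members past the threshold or, where fewer than 3 passed, the 3 of smallest p in each direction, the 6 highest members of a class, Havcr2, Irf9, Ifnar1, Ifnar2, passing pathway genes (as counts with examples), and the 8 genes most like the module. A further named gene is not reported here. Depth was 687 to 131217 UMIs per cell.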

Additional observations from a re-analysis of the deposited data

Results flagged for a closer look

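In CD8 T-like cells the genotype difference in the draining node differed from that in the non-draining node, by the tested interaction in limma, for Ifi27l2a (0.77, adjusted p = 0.0144) and Rtp4 (0.29, adjusted p = 0.0391). The module level rose from the non-draining to the draining node in both KO mice and fell in both WT mice in CD8 T-like and pDC-like cells. The KO minus WT difference was 0.0826 in CD8 T-like and 0.129 in pDC-like cells. In CD8 T-like cells of WT1 the change was only -0.00123. With cells thinned to equal depth, pDC-like cells of WT2 were instead higher in the draining node, at 0.297 against 0.280. The KO minus WT difference in module level was not tested.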

How the results depend on the processing

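The members called changed with the processing as follows. For KO minus WT, 0 at first, the channel as a replicate block gave 6 in macrophage-like and 1 in monocyte-like cells and 1 in mature dendritic cells of the draining node, and changed no other call of a member. The replicate number marks the shared droplet channel. On the other log scale 1 was called in those mature dendritic cells (Isg15, with 0.0285% of all genes called). With limma-voom 3 were called there and 1 each in draining-node CD4 T-like and non-draining-node B-like cells (Epsti1). With only the samples of the tissue 1 was called in non-draining-node pDC-like cells (Isg15, with 0.0618% of all genes called). Leaving out 1 mouse changed the calls in macrophage-like, monocyte-like, cDC1-like and mature dendritic cells. Such fits leave 1 mouse in a genotype, so the medians of the members are given here. These ran from -0.066 (without KO1) to 0.12 (without KO2) in macrophage-like cells. In monocyte-like cells they ran from -0.062 (without WT2) to 0.15 (without WT1). The range was 0.031 to 0.052 in cDC1-like cells. For mature dendritic cells it was 0.024 to 0.070 in the draining and -0.046 to -0.011 in the non-draining node. The genotype difference between nodes in CD8 T-like cells gave 2 at first. It gave 5 on the other log scale (0.219% of all genes called) and 5 without cells of high mitochondrial share (0.233%). The count was 1 at 2000 UMIs (0.137%) or centred (0.0875%), and 0 with a detection filter of 10%, no filter or 1 more marker. Without 1 mouse these calls changed as given above. The same difference between nodes in pDC-like cells, 0 at first, gave 1 on the other log scale (0.0121% of all genes called). Without 1 mouse its calls changed in pDC-like, mature dendritic and B-like cells. Medians of the members then ran from 0.17 to 0.23 in pDC-like, 0.068 to 0.16 in mature dendritic and 0.042 to 0.13 in B-like cells. Draining minus non-draining in CD8 T-like cells gave 0 to 3 (3 without WT2, where 0.0725% of all genes were called). At 2000 UMIs a cell the counts were 9 in place of 17 for tumour CD8 T-like and 22 in place of 35 for monocyte-like against macrophage-like cells. Against cDC2-like cells of the draining node, pDC-like cells gave 8 in place of 13, mature dendritic cells 10 in place of 24 and cDC1-like cells 3 in place of 9. Against CD4 T-like cells of that node, CD8 T-like cells gave 1 in place of 3 and B-like cells 6 in place of 11. The detection filter was applied again at 2000 UMIs, so fewer members and genes could be tested, here and in the counts at that depth above. For the genotype difference between nodes in CD8 T-like cells, 18 members and 3662 genes were tested in place of 27 and 6856. Without 1 mouse tumour CD8 T-like cells gave 10 to 26. In the non-draining node CD8 T-like against CD4 T-like cells gave 1 in place of 2 at 2000 UMIs, without a filter, centred and without the replicate block, and B-like against CD4 T-like cells gave 2 at 2000 UMIs and 8 with 1 more marker in place of 4. B-like against CD4 T-like cells of the draining node gave 7 on the other log scale and 7 to 11 without 1 mouse (7 without WT1). Without 1 mouse, CD8 T-like against CD4 T-like cells gave 1 to 2 in either node (1 without WT1), and cDC1-like against cDC2-like cells 5 to 8 in the draining node (5 without KO2) and 6 to 9 in the other (6 without WT2).

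On the other log scale, the sign turned in KO minus WT for Bst2 0.17 in CD4 T-like cells of the draining node, Parp9 -0.062 in pDC-like cells of the non-draining node, Slfn1 -0.017 in CD8 T-like cells of the non-draining node and Stat2 0.042 in CD8 T-like cells of the draining node. It also turned in the draining minus non-draining difference for Eif2ak2 0.061 in CD4 T-like cells. Further turns came in the genotype difference between the nodes for Epsti1 0.033 in pDC-like cells and Ifitm3 0.11 in B-like cells. The same setting turned class differences for Ly6a 0.037 in cDC1-like against cDC2-like cells of the draining node. At 2000 UMIs a cell, the sign turned in KO minus WT for Bst2 0.0027 in CD4 T-like cells of the draining node, Dtx3l 0.036 in cDC1-like cells of the draining node, Parp9 -0.20 in pDC-like cells of the non-draining node, Samd9l 0.11 in cDC1-like cells of the draining node and Slfn1 -0.079 in CD8 T-like cells of the non-draining node. It also turned in the genotype difference between the nodes for Epsti1 0.13 in pDC-like cells. Further turns came in the draining minus non-draining difference for Ifitm3 -0.041 in cDC1-like cells, Isg15 0.014 in B-like cells and Phf11b 0.011 in B-like cells. With 1 more marker in the gate, the sign turned in KO minus WT for Bst2 0.033 in CD4 T-like cells of the draining node, Ifih1 0.016 in CD4 T-like cells of the draining node, Lgals3bp -0.00086 in mature dendritic cells of the non-draining node and Slfn1 -0.0068 in CD8 T-like cells of the non-draining node. It also turned in the genotype difference between the nodes for Eif2ak2 0.00042 in B-like cells and Ifitm3 0.0052 in B-like cells. Further turns came in the draining minus non-draining difference for Isg15 0.17 in cDC1-like cells and Parp14 0.035 in pDC-like cells. Without cells of high mitochondrial share, the sign turned in KO minus WT for Bst2 0.041 in CD4 T-like cells of the draining node and Ifi27l2a 0.053 in cDC1-like cells of the draining node. It also turned in the genotype difference between the nodes for Eif2ak2 0.00081 in B-like cells, Eif2ak2 0.0020 in mature dendritic cells, Herc6 0.0080 in CD4 T-like cells and Ifitm3 0.0065 in B-like cells. Further turns came in the draining minus non-draining difference for Ifi35 0.0028 in CD8 T-like cells and Isg15 0.14 in cDC1-like cells. With limma-voom on summed UMIs, the sign turned in KO minus WT for Bst2 0.53 in CD4 T-like cells of the draining node, Herc6 0.087 in monocyte-like cells of the tumour, Phf11b 0.058 in monocyte-like cells of the tumour and Samd9l -0.030 in CD8 T-like cells of the non-draining node. When each mouse was left out in turn, the sign turned in the genotype difference between the nodes for Bst2 from -0.82 to 0.21 in mature dendritic cells, Bst2 from -0.53 to 0.11 in pDC-like cells, Eif2ak2 from -0.032 to 0.031 in B-like cells, Epsti1 from -0.15 to 0.090 in pDC-like cells and Herc6 from -0.090 to 0.039 in CD4 T-like cells. More turned in the genotype difference between the nodes for Ifitm3 from -0.047 to 0.022 in B-like cells, Slfn8 from -0.13 to 0.084 in pDC-like cells and Zbp1 from -0.22 to 0.00021 in CD4 T-like cells. The sign also turned in KO minus WT for Bst2 from -0.10 to 0.070 in CD4 T-like cells of the draining node, Cmpk2 from -0.089 to 0.012 in macrophage-like cells of the tumour, Herc6 from -0.25 to 0.054 in monocyte-like cells of the tumour, Ifi27l2a from -0.28 to 0.036 in cDC1-like cells of the draining node and Ifi27l2a from -0.27 to 0.087 in macrophage-like cells of the tumour. A turn was seen in KO minus WT for Ifih1 from -0.012 to 0.056 in CD4 T-like cells of the draining node, Parp14 from -0.075 to 0.011 in CD8 T-like cells of the draining node, Phf11b from -0.33 to 0.097 in monocyte-like cells of the tumour, Rsad2 from -0.017 to 0.13 in mature dendritic cells of the non-draining node and Samd9l from -0.068 to 0.021 in CD4 T-like cells of the draining node. Others turned in KO minus WT for Samd9l from -0.15 to 0.053 in cDC1-like cells of the draining node, Samd9l from -0.031 to 0.0018 in macrophage-like cells of the tumour, Slfn1 from -0.13 to 0.15 in CD8 T-like cells of the non-draining node, Slfn8 from -0.021 to 0.074 in B-like cells of the non-draining node and Stat2 from -0.030 to 0.0074 in CD8 T-like cells of the draining node. More turned in KO minus WT for Zbp1 from -0.11 to 0.024 in CD8 T-like cells of the draining node. The sign also turned in the draining minus non-draining difference for Bst2 from -0.29 to 0.056 in mature dendritic cells, Eif2ak2 from -0.019 to 0.030 in CD4 T-like cells, Ifi35 from -0.044 to 0.030 in CD8 T-like cells, Ifi35 from -0.065 to 0.31 in cDC1-like cells and Isg15 from -0.33 to 0.13 in cDC1-like cells. A turn was seen in the draining minus non-draining difference for Parp14 from -0.099 to 0.0015 in pDC-like cells and Zbp1 from -0.086 to 0.0046 in CD4 T-like cells.

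Medians of the members kept their sign under 10 of 10 alternatives for each of the 5 genotype differences between nodes, and for monocyte-like against macrophage-like cells they stayed between 0.87 and 0.98. Their sign turned under some alternatives for KO minus WT in macrophage-like (kept under 10 of 12, -0.066 to 0.12), monocyte-like (9 of 12, -0.062 to 0.15) and non-draining-node B-like cells (10 of 12, -0.025 to 0.0029). Draining minus non-draining turned in cDC1-like (kept under 8 of 11, -0.068 to 0.064) and pDC-like cells (10 of 11, -0.0016 to 0.0995). Class medians turned for pDC-like (7 of 10, -0.23 to 0.61) and cDC1-like (9 of 10, -0.22 to 0.073) against cDC2-like cells of the draining node and mature dendritic against cDC2-like cells of the other (6 of 9, -0.13 to 0.14). They also turned for CD8 T-like against CD4 T-like cells of the draining (9 of 11, -0.085 to 0.12) and non-draining node (6 of 11, -0.092 to 0.15) and B-like against CD4 T-like cells of the latter (6 of 11, -0.059 to 0.13). Class contrasts with cDC2-like cells of the non-draining node gave no value at 2000 UMIs or with 1 more marker. With 2 mice a genotype, a fit without 1 of them assumes that the lone mouse varies like the others, and classes near 20 cells a sample limit what low members can show. Where a sign turned, the cause was not tested.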
